A study of Mus musculus with 14 samples.

Results

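The effect of Atg14 loss on chromatin was compared between central and effector regulatory T cells (cTregs and eTregs), that is, the difference between Atg14-deficient and control eTregs minus the difference between Atg14-deficient and control cTregs. All 14 of the 14 bulk ATAC-seq libraries of the series entered this comparison, and 61366 of the 67254 accessible regions in the deposited table passed the filter on low counts and were tested. Mixed bone marrow (BM) chimeras were the source of all cells. CD45.2+ BM of control donors (Foxp3Cre Atg14+/fl, labelled Control) or of Foxp3Cre Atg14fl/fl donors (labelled Atg14-deficient) had been mixed 1:1 with CD45.1+ wild-type BM and given to sublethally irradiated Rag1-/- mice, which lack mature T and B cells of their own, 6 to 8 weeks before use. From the spleen, CD4+Foxp3-YFP+ cells were sorted into CD44-CD62L+ cTregs and CD44+CD62L- eTregs. Each of the 2 sorted states had 3 control and 4 Atg14-deficient libraries. Cre under the Foxp3 gene acts in cells that express Foxp3, and the controls carried the same Cre and 1 floxed allele, so that the groups differed in the second Atg14 allele and not in Cre. Same-numbered cTreg and eTreg libraries of a genotype were taken as 1 mouse, which gave 3 control and 4 Atg14-deficient mice. The labels do not state that shared number to be a shared mouse.

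Atg14 is a subunit of the Vps34 lipid kinase complex that starts autophagosome formation, and deletion of a floxed Atg14 gene blocks this route to autophagy. In cTregs, which recirculate through lymphoid organs, genes such as S1pr1, Ccr7, Klf2 and Lef1 are active, whereas eTregs respond to antigen, leave the recirculating pool and express Icos, Klrg1, Il10 and other effector molecules. ATAC-seq reads out where a transposase can enter the DNA, so a higher count over a region means more accessible chromatin there. Accessibility at a region is not expression of the nearest gene, which is named here only to place the region.

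Of the regions described here, 6 are shown as DNA sequence because they stand for the main kinds of difference. They are the region that passed the multiple-testing adjustment (nearest gene Gm52297), regions near Ext1 and Myc that were relatively less accessible in Atg14-deficient eTregs, and regions near Dnajc4, S1pr1 and Klf2 that were relatively more accessible. Each run is 300 bases of the region on the plus strand of the RefSeq assembly GRCm38.p6, taken from its centre except at Gm52297, where the window was moved off the centre to hold the motif match of the region, and capitals mark matches on either strand to short consensus motifs of AP-1 (TGANTCA), TCF/LEF (CTTTGAT), ETS (CCGGAAG), RUNX (TGTGGTT), NF-kappaB (GGGAN followed by TTNCC), forkhead (TGTTTAC) or CTCF (CCANNAG followed by NNGGC) factors.
Gm52297 chr17:86709905-86710204: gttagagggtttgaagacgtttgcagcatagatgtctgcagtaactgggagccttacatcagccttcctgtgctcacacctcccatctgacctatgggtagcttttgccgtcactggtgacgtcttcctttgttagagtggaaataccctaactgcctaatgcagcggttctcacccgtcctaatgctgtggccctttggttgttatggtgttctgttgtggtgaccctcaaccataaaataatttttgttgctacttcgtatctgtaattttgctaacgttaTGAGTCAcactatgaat
Ext1 chr15:53249034-53249333: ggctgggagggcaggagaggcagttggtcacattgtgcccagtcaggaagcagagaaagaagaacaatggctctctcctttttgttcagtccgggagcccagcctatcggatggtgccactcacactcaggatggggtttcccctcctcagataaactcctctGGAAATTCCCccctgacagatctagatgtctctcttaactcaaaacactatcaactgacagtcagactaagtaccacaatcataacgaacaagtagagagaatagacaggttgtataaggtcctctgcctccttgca
Myc chr15:61981475-61981774: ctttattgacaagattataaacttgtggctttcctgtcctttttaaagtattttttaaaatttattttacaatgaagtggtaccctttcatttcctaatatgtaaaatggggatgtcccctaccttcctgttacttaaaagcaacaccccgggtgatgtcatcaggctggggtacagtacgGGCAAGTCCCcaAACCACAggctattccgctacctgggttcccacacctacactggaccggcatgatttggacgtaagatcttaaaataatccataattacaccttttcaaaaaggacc
Dnajc4 chr19:6992520-6992819: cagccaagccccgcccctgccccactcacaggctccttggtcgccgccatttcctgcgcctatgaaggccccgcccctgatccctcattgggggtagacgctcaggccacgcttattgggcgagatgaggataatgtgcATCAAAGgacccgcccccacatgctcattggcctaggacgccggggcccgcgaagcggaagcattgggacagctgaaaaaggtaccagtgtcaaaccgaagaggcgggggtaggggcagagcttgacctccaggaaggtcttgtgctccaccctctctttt
S1pr1 chr3:115715965-115716264: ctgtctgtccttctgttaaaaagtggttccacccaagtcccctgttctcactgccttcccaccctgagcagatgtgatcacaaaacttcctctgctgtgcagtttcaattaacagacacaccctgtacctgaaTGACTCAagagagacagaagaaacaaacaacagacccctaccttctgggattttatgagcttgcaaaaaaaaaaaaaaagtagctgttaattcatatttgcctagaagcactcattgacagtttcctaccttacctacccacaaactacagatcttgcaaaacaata
Klf2 chr8:72350782-72351081: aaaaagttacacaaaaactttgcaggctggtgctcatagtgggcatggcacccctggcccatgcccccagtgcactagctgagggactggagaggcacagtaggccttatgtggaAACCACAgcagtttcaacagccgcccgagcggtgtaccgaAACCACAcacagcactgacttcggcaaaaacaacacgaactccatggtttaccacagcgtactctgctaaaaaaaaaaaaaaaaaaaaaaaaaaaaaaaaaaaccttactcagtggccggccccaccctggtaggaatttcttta
The Gm52297 and S1pr1 runs each hold 1 AP-1 match. The Ext1 run holds an NF-kappaB match, and the Myc run holds an NF-kappaB match followed closely by a RUNX match. A TCF/LEF match lies in the Dnajc4 run, and the Klf2 run has 2 RUNX matches. A match describes the letters and does not show that a factor was bound. Among all tested regions, which had a median length of 340 bp, 17.5% held the AP-1 motif, 15.1% the RUNX motif, 6.83% the TCF/LEF motif and 2.95% the NF-kappaB motif.

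Total counts per library ranged from 2242983 to 5548189, and the median tested region had a mean of 23.0 counts per library. Same-numbered libraries deviated from their group means together in each mouse, with correlations across regions of 0.05 to 0.21 in the 3 control pairs and 0.12 to 0.24 in the 4 Atg14-deficient pairs, and every eTreg library was most similar in this respect to the cTreg library of its own number. Summed CPM (counts per 1000000 counts of a library) over the regions nearest 4 Treg marker genes and 6 cTreg marker genes was 586 to 702 and 1238 to 1470 in cTregs. In control eTregs the sums were 434 to 503 and 830 to 926, and in Atg14-deficient eTregs 538 to 583 and 1002 to 1109.5, so the eTreg values of the genotypes did not overlap. At 6 eTreg marker genes they did overlap (854 to 941 in control and 873 to 1074 in Atg14-deficient eTregs), as did the eTreg minus cTreg log2 gaps of the Treg sum (-0.53 to -0.23 in control and -0.28 to -0.12 in Atg14-deficient mice). Markers of B cells summed to 6.23 to 23.9 CPM, with regions at 2 of 5 genes and none at Ms4a1 or Pax5. Myeloid markers (3 of 5 genes with a region, none at Lyz2 or Csf1r) summed to 45.2 to 68.4 CPM, CD8 T and NK cell markers (4 of 5, none at Eomes) to 97.4 to 157 CPM and erythroid markers (4 of 5, none at Hba-a1) to 25.6 to 55.3 CPM. In these bulk libraries a shift in the mix of cells within a sort gate and a change in accessibility per cell cannot be told apart.

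Few single regions separated the genotype effects of the 2 states. Counts were fitted by edgeR's quasi-likelihood test with the mouse as a block, and the reported log2 difference is positive when Atg14 loss moved accessibility more positively in eTregs than in cTregs. An unadjusted p below 0.05 with a log2 difference beyond 0.5 was met by 2773 regions (4.52% of those tested), of which 1657 were higher (2.7%) and 1116 lower (1.82%). The excess of higher regions depended on the scaling: 59.8% of called regions were higher with total counts, and 51.3% to 52.9% with TMM normalization (1483 higher, 1328 lower), DESeq2's size factors (1490, 1328), loess offsets (1484, 1360) or GC-content loess offsets (1429, 1357). The unadjusted p alone was below 0.05 in 3304 regions, or 5.38%, where 5% are the nominal share if no region differed. After Benjamini-Hochberg adjustment 1 region remained (0.00163%). In the following text a region is called higher or lower when it met the unadjusted threshold, and most such regions cannot be held as individual findings. By the same measure the separate effects of Atg14 loss had 2842 regions higher (4.63%) and 1074 lower (1.75%) in eTregs and 1231 higher (2.01%) and 818 lower (1.33%) in cTregs, with 14 (0.0228%) and 10 (0.0163%) regions after adjustment. The median standard error of a log2 difference was 0.54, which limits what this comparison could detect with 7 mice.

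The region that passed the adjustment lay between genes on chromosome 17 (chr17:86709765-86710262), 40409 bp past the start of Gm52297, a long noncoding RNA gene, and 43851 bp before Epas1, the gene of the hypoxia-inducible factor HIF-2alpha. Its values were 53.8, 58.9 and 40.6 CPM in control cTregs and 68.9, 59.95, 55.2 and 64.2 CPM in Atg14-deficient cTregs. In eTregs they were 71.6, 84.5 and 57.5 CPM in controls and 46.1, 30.1, 36.3 and 44.2 CPM in Atg14-deficient libraries. The eTreg values of the genotypes did not overlap, and the cTreg values did. Controls were thus more accessible in eTregs (71.2 ± 13.5 CPM, SD, n = 3) than in cTregs (51.1 ± 9.45, n = 3) while Atg14-deficient cells showed the opposite order (39.2 ± 7.39 in eTregs and 62.1 ± 5.84 in cTregs, n = 4 each). The log2 difference between the genotype effects was -1.14 (SE 0.18, adjusted p = 0.00409 by edgeR's quasi-likelihood test), made of an effect of -0.85 (SE 0.16) in eTregs and 0.27 (SE 0.17) in cTregs. All 4 Atg14-deficient mice had a smaller eTreg minus cTreg gap than all 3 control mice. The call depends on taking same-numbered libraries as 1 mouse: the log2 difference stayed between -1.19 and -0.96 in the 18 other settings tried, but the adjusted p was 0.9999 without the mouse block and 0.392 with the mouse as a random effect. It was 0.231 with counts thinned to the smallest library, 0.0799 without control mouse 1 and 0.075 without control mouse 2.

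**Figure D1:**
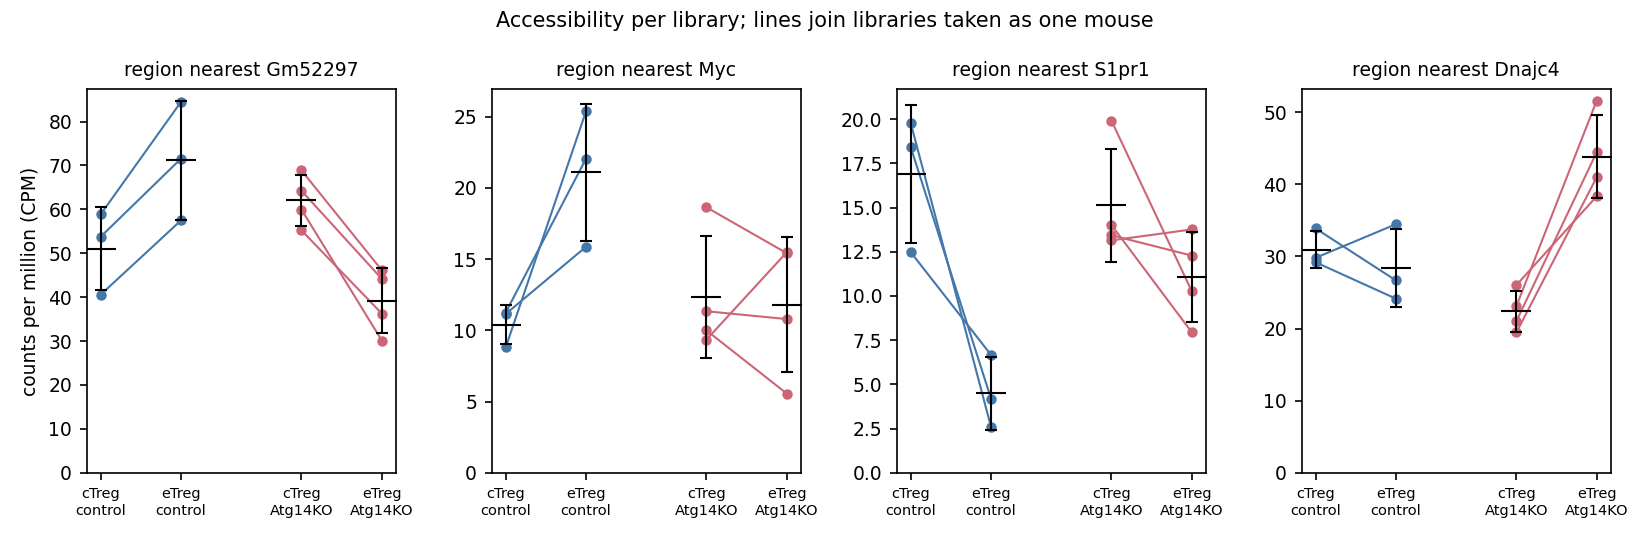
CPM in each of the 14 libraries at the regions near Gm52297, Myc, S1pr1 and Dnajc4, with lines joining the cTreg and eTreg library of a mouse and black bars for the group mean ± SD. At Gm52297 the lines of the 3 control mice run upward from cTreg to eTreg and those of the 4 Atg14-deficient mice run downward, and at Dnajc4 all 4 Atg14-deficient lines run upward.

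Most called regions had estimated effects of opposite sign in the 2 states, but few had an effect past the threshold in both. Among the 1657 higher regions the median effect of Atg14 loss was 0.72 in eTregs and -0.34 in cTregs, and the signs were opposite in 1387 (83.7%). Among the 1116 lower regions the medians were -0.52 in eTregs and 0.50 in cTregs, and the signs were opposite in 1004 (90.0%). Opposite signs were found in 42.6% of all tested regions, and a difference between 2 effects is largest by construction where their signs differ, so these shares describe the calls and are no separate evidence. The effect itself met the unadjusted threshold in eTregs for 760 of the higher and 298 of the lower regions, and in cTregs for 233 and 245. It met the threshold in both states with opposite signs for 13 higher and 8 lower regions, and in neither for 684 and 583. Across higher regions the median fitted eTreg minus cTreg gap was -0.55 in controls and 0.56 in Atg14-deficient mice. Across lower regions it was 0.59 in controls and -0.51 in Atg14-deficient mice. The regions were called on the difference between these gaps, so that contrast too follows from the choice and is no separate evidence.

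**Figure D2:**
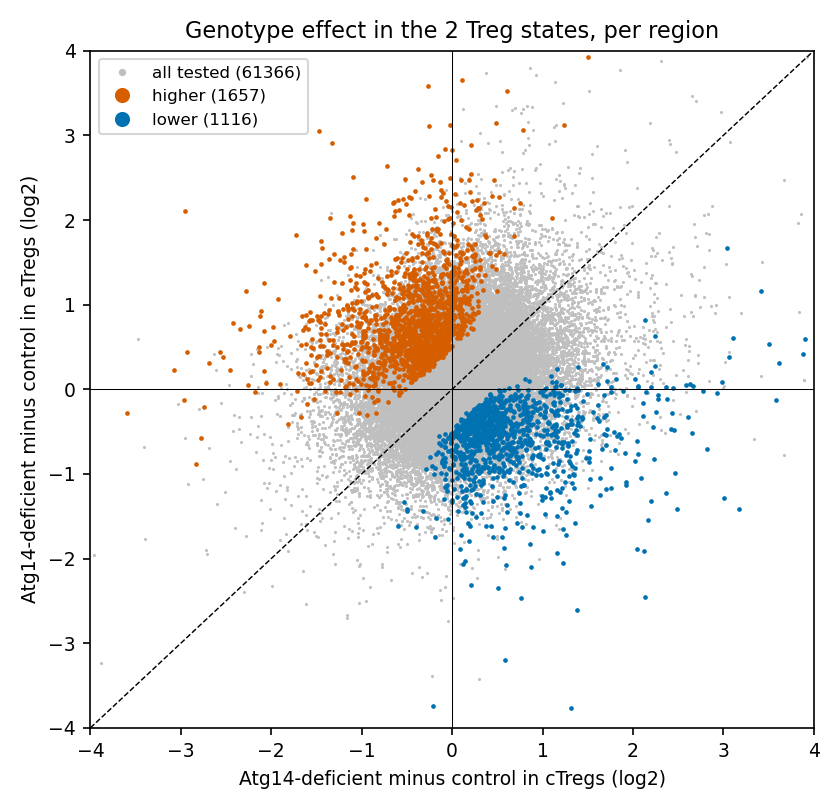
Each point is a tested region, placed by the log2 effect of Atg14 loss in cTregs (x axis) and in eTregs (y axis), with the 1657 higher regions in orange, the 1116 lower regions in blue and the others in grey. The dashed line marks equal effects, and the coloured points lie off it on both sides, mostly where 1 effect is above 0 and the other below. 69 regions lie outside the axes.

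The 10 lower regions with the smallest p in which the gaps of all Atg14-deficient mice lay below those of all control mice (638 of the 1116 lower regions had such gaps, and 3.12% of all tested regions) began with Gm52297. The next was intergenic, near the long noncoding RNA gene 4930445E18Rik (chr15:25269480-25270126). It held 99.2, 83.1 and 77.6 CPM in control cTregs, 74.3, 89.5, 87.3 and 76.5 in Atg14-deficient cTregs, 103, 93.7 and 98.4 in control eTregs and 56.03, 57.7, 55.6 and 48.03 in Atg14-deficient eTregs. Atg14-deficient eTregs stood apart from every other library there, including all of their cTreg partners, and the log2 difference was -0.78 (SE 0.15, adjusted p = 0.161) by edgeR's quasi-likelihood test, which does not pass. At an intron of Enpp3, which encodes an ectonucleotidase, eTregs held 48.5, 37.001 and 34.1 CPM in controls and 22.2, 25.9, 34.9 and 21.6 in Atg14-deficient libraries, with a log2 difference of -0.87 (SE 0.22).
At the promoter of Selenow, the gene of a small selenoprotein linked to redox control, control libraries held 45.5, 45.5 and 31.2 CPM in cTregs and 56.6, 51.96 and 41.8 in eTregs. Atg14-deficient libraries held 48.7, 52.9, 46.8 and 63.9 CPM in cTregs and 41.9, 28.4, 37.6 and 36.98 in eTregs, a log2 difference of -0.85 (SE 0.20). The genotypes did not overlap in cTregs and did in eTregs, and the effects in the single states (0.37 and -0.45) were both under the cutoff of 0.5 in size. Next to Ppa2 (a mitochondrial pyrophosphatase) and, at 107982 bp, the start of Tet2 (a dioxygenase of DNA demethylation), an intergenic region had 57.7 to 124 CPM in control and 45.6 to 88.1 in Atg14-deficient eTregs, and a log2 difference of -0.67 (SE 0.16). The remaining regions of the 10 were nearest C1ql3 (-0.73), Bean1 (-2.73), Mir8118 (-1.56), 4930598A11Rik (-1.33) and 6720489N17Rik (-0.60). Apart from Gm52297 their adjusted p-values ran from 0.161 to 0.681 by edgeR.

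The corresponding 10 higher regions (944 of 1657 had gaps of all Atg14-deficient mice above those of all control mice, and 3.74% of all tested regions) were mostly promoters. At the promoter of Phf23, a PHD-finger protein gene (chr11:69997177-69997494), values were 14.2, 8.14 and 8.92 CPM in control cTregs and 6.72, 7.01, 3.68 and 8.35 in Atg14-deficient cTregs. They were 11.7, 7.61 and 7.57 CPM in control eTregs and 13.8, 25.1, 14.6 and 27.2 in Atg14-deficient eTregs. Every Atg14-deficient eTreg library lay above every control one, while the cTreg values leaned the other way and overlapped, with a log2 difference of 1.85 (SE 0.40, adjusted p = 0.47) by edgeR's quasi-likelihood test. The Dnajc4 promoter (chr19:6992440-6992899), whose gene encodes a DnaJ-family co-chaperone, separated the genotypes in both states and in opposite order. It held 29.8, 29.2 and 33.9 CPM in control cTregs against 26.03, 19.5, 21.03 and 23.1 in Atg14-deficient cTregs, and 34.5, 24.1 and 26.7 in control eTregs against 38.4, 41.000, 44.5 and 51.6 in Atg14-deficient eTregs, a log2 difference of 1.11 (SE 0.24, adjusted p = 0.47) by edgeR.
An intron of Bcl11b (chr12:107920650-107921971), the gene of a zinc-finger factor that T cells need to keep their lineage, held 20.8, 29.4 and 22.7 CPM in control and 59.9, 41.8, 37.9 and 49.3 in Atg14-deficient eTregs, beside 36.2, 37.3 and 31.7 in control cTregs and 29.4, 24.1, 28.9 and 48.2 in Atg14-deficient cTregs. The genotypes did not overlap in eTregs and did in cTregs. Its log2 difference was 1.06 (SE 0.24, adjusted p = 0.577) by edgeR. Near Aim2, the gene of a cytosolic DNA sensor, control libraries held 32.3, 28.003 and 37.5 CPM in cTregs and 6.51, 8.397 and 12.98 in eTregs. Atg14-deficient libraries held 45.4, 26.9, 45.2 and 21.5 CPM in cTregs and 23.97, 18.4, 27.8 and 15.9 in eTregs. The eTreg values of the genotypes did not overlap, and the log2 difference was 1.15 (SE 0.28). A region 532 bp downstream of the start of Map3k11, which encodes a kinase upstream of JNK, and 660 bp from that of Pcnx3 gave 1.72. The promoters of Slc11a2, the iron transporter DMT1 (1.20), of Kdm1b, a histone demethylase (0.64), and of Coq10a, a coenzyme Q binding protein (0.75), completed the list with regions nearest Mgll (1.38), a monoacylglycerol lipase, and Pmel (1.34). Adjusted p-values of the 10 ran from 0.47 to 0.648 by edgeR.

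**Figure D3:**
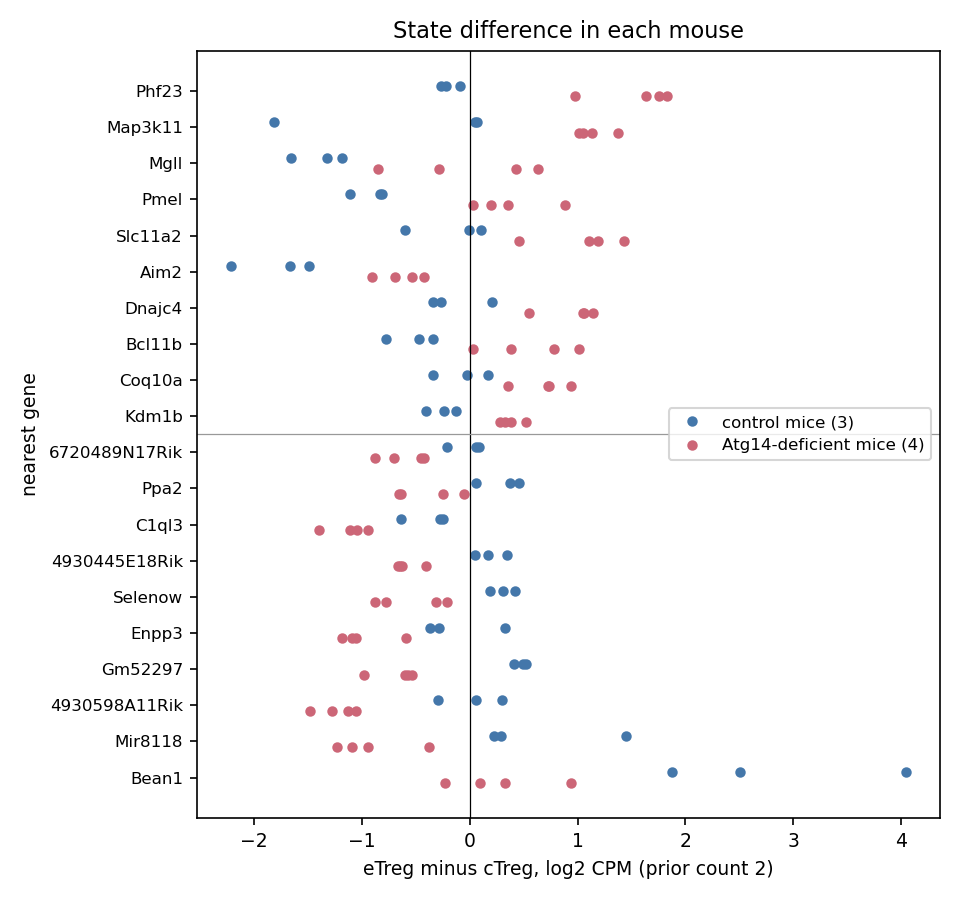
The eTreg minus cTreg gap in log2 CPM (prior count 2) of each of the 7 mice at the 10 higher and 10 lower regions described above. Points of the 4 Atg14-deficient mice lie on 1 side of those of the 3 control mice in every row, as the choice of regions requires, and the rows show how wide each genotype spreads.

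Some genes had several called regions in 1 direction and none in the other. Over all tested regions 2.7% were higher and 1.82% lower, and the genes named here are those with the most called regions, so their counts are a description. Bcl11b had 5 higher of its 25 tested regions, Znrf1, an E3 ubiquitin ligase gene, 4 of 14, and S1pr1, the receptor by which lymphocytes follow sphingosine 1-phosphate out of lymphoid organs, 4 of 25. A region at 1060 bp upstream of the S1pr1 start (chr3:115715930-115716300) held 19.8, 18.4 and 12.5 CPM in control and 13.4, 14.02, 13.1 and 19.9 in Atg14-deficient cTregs. It held 2.602, 4.199 and 6.67 CPM in control and 12.3, 7.95, 13.8 and 10.3 in Atg14-deficient eTregs. The eTreg values did not overlap between genotypes whereas the gaps of the mice did, and the log2 difference was 1.44 (SE 0.43, adjusted p = 0.792) by edgeR's quasi-likelihood test. At the S1pr1 start itself the log2 difference was 0.65 (SE 0.24), with 9.76 to 23.6 CPM in control and 27.6 to 38.1 in Atg14-deficient eTregs. In an intron of Znrf1 at chr8:111582407-111582824, eTregs held 6.51, 4.199 and 10.99 CPM in controls and 17.98, 14.2, 16.4 and 13.6 in Atg14-deficient libraries, a log2 difference of 1.05 (SE 0.31). A second Znrf1 region, chr8:111551087-111551287, was listed at 0 in all 3 control eTreg libraries and held 1.199, 3.35, 1.06 and 1.03 CPM in the Atg14-deficient ones, so that no fold is given. The long noncoding RNA gene 5430437J10Rik (3 of 15) and the small nuclear RNA gene LOC115487016 (3 of 24), whose nearest coding gene was Maf, followed among the 19 genes with 3 or more higher regions and no lower one.
In the lower direction 7 genes had 3 or more regions. Ext1, which encodes an enzyme of heparan sulfate synthesis, had 4 of 23. At its intronic region chr15:53248953-53249414 control libraries held 36.2, 44.996 and 24.1 CPM in cTregs and 29.9, 34.1 and 21.99 in eTregs. Atg14-deficient libraries held 44.5, 37.4, 50.5 and 46.9 CPM in cTregs and 20.4, 18.4, 22.8 and 24.1 in eTregs, and the log2 difference was -0.78 (SE 0.23). The mice of the genotypes did not overlap in their gaps there. Gm26535 (3 of 7), Ston2 (3 of 15), Pde10a (3 of 11) and Otulinl (3 of 21) followed. Genes with many regions can reach such counts more easily, and no test was made of the clustering.

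Regions near genes of the cTreg program were called higher more often than regions overall. Of 198 regions at its 12 genes, 16 were higher (8.08%, beside 2.7% of all tested regions) and 2 lower (1.01%, beside 1.82%), and the median log2 difference was 0.20 beside 0.03. The higher regions belonged to 8 genes: S1pr1 (4), the forkhead genes Foxp1 (3) and Foxo1 (2), the TCF-family gene Lef1 (3), and Klf2, Ccr7, Il7r and Myb (1 each), whereas the lower ones were at Bach2 and Il7r. None passed the adjustment, and the number of higher regions was between 7 and 17 in the other settings, with 9 when control mouse 1 was left out and 10 with thinned counts. The number of lower regions was 1 to 5, with 5 when control mouse 2 was left out. The median eTreg minus cTreg gap of the list was -0.69 in control and -0.44 in Atg14-deficient mice, so that eTregs of both genotypes were less accessible at these genes than cTregs, by less in Atg14-deficient mice. In 8 of the 16 higher regions the gaps of the mice did not overlap, beside 944 of all 1657 higher regions, so the list did not stand out in this. The summed signal at the 6 cTreg marker genes, some of which are in this list, gave eTreg minus cTreg gaps of -0.76 to -0.44 in control and -0.41 to -0.35 in Atg14-deficient mice on the log2 scale. The part of these sums in the calls was not tested.
An intronic region of Foxp1 (chr6:99388747-99389316) had 1.95, 3.67 and 2.52 CPM in control eTregs and 8.39, 5.02, 9.0002 and 8.48 in Atg14-deficient eTregs, beside 12.7, 8.86 and 12.5 in control cTregs and 11.8, 11.7, 8.41 and 4.497 in Atg14-deficient cTregs, a log2 difference of 1.88 (SE 0.53). Near Klf2, which turns on S1pr1, a region (chr8:72350778-72351086) had 6.51, 6.04 and 4.69 CPM in control eTregs and 16.2, 7.11, 17.2 and 15.4 in Atg14-deficient eTregs. Its cTreg values were 12.95, 16.99 and 12.5 CPM in controls and 16.4, 10.9, 20.8 and 12.5 in Atg14-deficient libraries, and the log2 difference was 1.18 (SE 0.38). At both regions the eTreg values of the genotypes did not overlap and those of cTregs did. At Il7r, the interleukin-7 receptor gene, a region 70341 bp upstream (chr15:9600173-9600391) was listed at 0 in the 3 control eTreg libraries, with 0.599, 0.837, 3.71 and 1.03 CPM in Atg14-deficient eTregs and 2.63 to 3.57 CPM in control cTregs.

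The list of Treg identity genes had 8 higher regions of 78 (10.3%, beside 2.7% of all tested regions) and no lower one (beside 1.82%). Of the 78 regions, 19 were more open in cTregs and 3 in eTregs, by an edgeR fit without the genotype difference (adjusted p below 0.05, log2 beyond 1). The median control gap of the list was -0.49, so it overlaps in kind with the cTreg program. The higher regions were at Cd28 (3) and Satb1 (3), a costimulatory receptor and a chromatin organizer, and at the inhibitory receptor gene Ctla4 and the interleukin-2 receptor gene Il2ra (1 each). None was at Foxp3 (1 region tested), Ikzf2 (26), Ikzf4 (3), Lrrc32 (3) or Nrp1 (1), of which Ikzf2 had a median log2 difference of 0.13 and the others medians of -0.20 to -0.17. In 4 of the 8 higher regions the gaps of the mice did not overlap between genotypes, beside 944 of all 1657 higher regions. The region upstream of Ctla4 (chr1:60899224-60899682) held 6.84, 8.86 and 11.6 CPM in control and 5.04, 7.79, 7.89 and 12.2 in Atg14-deficient cTregs, and 5.86, 5.25 and 6.49 in control and 11.99, 15.1, 16.9 and 16.4 in Atg14-deficient eTregs. Every Atg14-deficient eTreg library lay above every control one, the cTreg values overlapped, and the log2 difference was 1.52 (SE 0.43). A region 43573 bp upstream of Cd28 had 0.651, 0.525 and 1.08 CPM in control and 2.996, 5.86, 3.18 and 6.16 in Atg14-deficient eTregs, with a log2 difference of 2.25 (SE 0.75). This Cd28 region had a mean of only 13.2 counts per library. The promoter of Satb1 gave 0.90 (SE 0.38). In control mice the eTreg minus cTreg gaps of these Ctla4, Cd28 and Satb1 regions were -0.62, -2.56 and -1.76. The number of higher regions in this list rests on few libraries: across the other settings it was 2 to 8, with 2 when control mouse 1 was left out and 4 when Atg14-deficient mouse 1 was.

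Effector molecules of eTregs had 9 of 149 regions higher (6.04%, beside 2.7% of all tested regions) and none lower (beside 1.82%). The higher ones were at Nt5e, the gene of the ectonucleotidase CD73 (3), Havcr2, which encodes Tim-3 (2), Icos, Il10, Il1rl1 and Lag3 (1 each). At the Havcr2 promoter cTregs held 12.2, 13.6 and 7.13 CPM in controls and 3.36, 0.779, 6.84 and 8.35 in Atg14-deficient libraries. The eTregs held 9.76, 13.1 and 6.13 CPM in controls and 7.19, 5.86, 12.2 and 21.3 in Atg14-deficient libraries. The difference there lay more in the cTregs (effect -1.15) than in the eTregs (effect 0.31), and the log2 difference between the effects was 1.48 (SE 0.45). The best measured Nt5e region gave 0.57 (SE 0.20) and the Lag3 region 1.65 (SE 0.66). In control mice the eTreg minus cTreg gap was -1.57 at the Lag3 region and -0.89 and -0.19 at the Havcr2 regions. Without control mouse 2 the list had 4 higher and 5 lower regions, and without control mouse 1 it had 5 higher and 2 lower ones. Of the transcription factors of eTregs, 3 of 95 regions were higher (3.16%, beside 2.7% of all), all at Irf4, a factor that eTregs need, and none was lower. Their log2 differences were 1.84 (SE 0.68), 1.64 (SE 0.73) and 2.00 (SE 0.84). The control gaps of these Irf4 regions were -2.57, -0.68 and -2.74, so control eTregs were less accessible there than control cTregs. Each of these regions had a mean of only 12 to 18 counts per library, and the number of higher regions in the list was 0 to 7 in the other settings, with 0 at 10 or more counts in every library, 1 without control mouse 2 and 7 without control mouse 3.

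**Figure D4:**
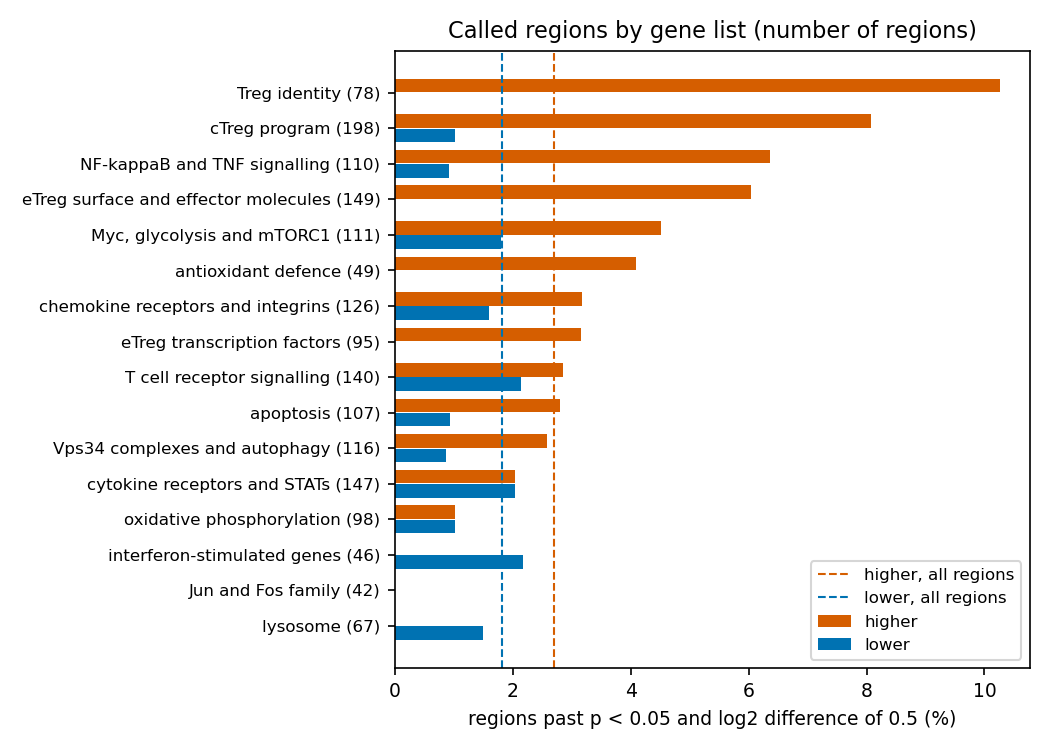
Percent of tested regions called higher (orange) and lower (blue) near the genes of each list with 40 or more regions, with dashed lines at 2.7% and 1.82%, the shares over all tested regions. The bars for Treg identity (10.3% higher) and the cTreg program (8.08% higher) stand farthest above the first line, and no list stands as far above the second.

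Regions at genes of autophagy were called higher about as often as regions overall. Of 116 regions at 36 genes of the Vps34 complexes and the autophagy machinery, 3 were higher (2.59%) and 1 lower (0.862%), beside 2.7% and 1.82% of all regions. The count of higher regions was 2 to 11 in the other settings, with 11 when control mouse 2 was left out, 7 without Atg14-deficient mouse 2 or 4 and 5 without control mouse 1 or 3. The count of lower regions was 0 to 4, with 4 without control mouse 2, 3 without Atg14-deficient mouse 4 and 0 without control mouse 3. The higher ones were at Uvrag, the subunit that replaces Atg14 in the endosomal Vps34 complex (1.09, SE 0.32), and at the promoters of Wipi1 (0.62, SE 0.16), which binds the lipid that Vps34 makes, and Atg4d (0.79, SE 0.33), a protease that processes the Atg8 proteins. A second Uvrag intron region was the lower one (-2.18, SE 0.96), with a mean of only 9.57 counts per library. At the higher Uvrag region, eTregs held 6.51, 10.5 and 9.01 CPM in controls and 26.4, 16.3, 23.3 and 23.1 in Atg14-deficient libraries. At the Wipi1 promoter cTregs held 72.998 to 83.8 CPM in controls and 57.5 to 80.95 in Atg14-deficient libraries, and eTregs 52.05 to 64.6 and 69.9 to 102. None of the 5 tested regions at Atg14 itself was called, with log2 differences from -0.82 (SE 0.47) to 0.64 (SE 0.48), of which the most distal one (0.27, SE 0.65) turned to -0.12 without control mouse 2. At its promoter values were 22.5 to 35.2 CPM in control and 16.8 to 25.7 in Atg14-deficient cTregs, and 19.8 to 31.2 and 20.9 to 29.3 in eTregs. Of the 67 regions of lysosome genes 1 was lower, near Mitf, and none was higher, and in the other settings 0 to 1 were lower (0 without control mouse 3) and 0 to 2 higher (2 without control mouse 2 or Atg14-deficient mouse 4).

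Metabolic genes were mixed. The list of Myc, glycolysis and mTORC1 genes had 5 of 111 regions higher (4.5%, beside 2.7% of all tested regions) and 2 lower (1.8%, beside 1.82%). A region 3716 bp upstream of Myc (chr15:61981455-61981795), the gene of a factor that drives growth, was lower. It held 8.799, 11.2 and 11.1 CPM in control cTregs and 11.3, 9.34, 9.99 and 18.6 in Atg14-deficient cTregs. In eTregs it held 25.4, 22.04 and 15.9 CPM in controls and 10.8, 15.5, 5.56 and 15.4 in Atg14-deficient libraries. Control eTregs were above every control cTreg library, Atg14-deficient eTregs overlapped with their cTregs, and the log2 difference was -1.14 (SE 0.38). The other lower region was in an intron of Rictor, a subunit of mTORC2 (-0.88, SE 0.32). Higher regions were near Ldha, lactate dehydrogenase (1.27, SE 0.43), and Hif1a (1.35, SE 0.46), and at Rptor, Tsc2 and Slc16a1. Of the 49 regions of antioxidant genes 2 were higher (4.08%), the promoters of the peroxiredoxin gene Prdx5 (1.01, SE 0.28) and of Nqo1 (0.63, SE 0.28), and none was lower. Oxidative phosphorylation genes had 1 higher and 1 lower of 98 regions (1.02% each). These small counts moved in the other settings. For oxidative phosphorylation they were 0 to 6 higher, with 6 without control mouse 2, 3 without control mouse 3 or Atg14-deficient mouse 2, 2 without Atg14-deficient mouse 1 or 3 and 0 without control mouse 1, and 0 to 3 lower, with 3 without control mouse 2, 2 without Atg14-deficient mouse 4 and 0 without control mouse 3. For Myc, glycolysis and mTORC1 they were 2 to 6 higher, with 2 without control mouse 1 and 3 without Atg14-deficient mouse 3, and 2 to 5 lower, with 5 without control mouse 2. For antioxidant genes they were 1 to 4 higher, with 4 without control mouse 1, control mouse 3 or Atg14-deficient mouse 2, and 0 to 2 lower, with 2 without control mouse 2.
In NF-kappaB and TNF signalling 7 of 110 regions were higher (6.36%, beside 2.7% of all tested regions) and 1 lower (0.909%, beside 1.82%). The higher ones were at Nfkb1, Nfkb2, Rela, the inhibitor gene Nfkbia (1.05, SE 0.45), Nfkbiz (2) and the adaptor gene Traf3 (2.05, SE 0.66). The lower one was near Tnfaip3, a feedback inhibitor (-2.03, SE 0.83). The Tnfaip3 and Traf3 regions had means of only 11.2 and 15.5 counts per library. The count of higher regions was 3 to 9 in the other settings, with 4 when control mouse 1 or Atg14-deficient mouse 3 was left out, and that of lower regions 0 to 3, with 3 without control mouse 1 and 2 without Atg14-deficient mouse 1, 2 or 4. No region of the Jun and Fos genes was called (0 to 2 higher and 0 to 1 lower in the other settings, both highest without control mouse 2), and the best measured of them, at Jund, gave 0.37 (SE 0.15), under the cutoff of 0.5.

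Regions of H2-M3, Zfp932, Bmf, Gm15708 and Slc22a8, named because an earlier analysis of these libraries singled them out for their genotype effects, did not depend on state in a common direction. At H2-M3, a nonclassical MHC gene, control libraries held 2.44, 0.957 and 2.68 CPM in cTregs and 1.95, 0.525 and 2.52 in eTregs. Atg14-deficient libraries held 47.03, 31.1, 50.5 and 46.9 CPM in cTregs and 40.2, 30.1, 39.7 and 45.2 in eTregs. The log2 effects were 4.49 in cTregs and 4.46 in eTregs, and their difference was 0.13 (SE 0.47), whose sign turned without the mouse block (-0.03) and with thinned counts (-0.01). Zfp932 was just past the threshold (1.32, SE 0.65), with effects of 5.05 in eTregs and 4.06 in cTregs, but it was called in only 3 of 17 other settings and gave -0.13 without control mouse 3. At the promoter of Bmf, a BH3-only gene of apoptosis, the effects were 2.02 and 1.10 and the difference 1.03 (SE 0.43). An upstream Bmf region gave 0.80 (SE 0.42) and was not called. In an intron of Gm15708 the effect was larger in cTregs (3.42) than in eTregs (1.16), with a difference of -2.34 (SE 0.66, adjusted p = 0.771) by edgeR's quasi-likelihood test. Its values were 0.978, 1.44 and 1.34 CPM in control cTregs and 15.96, 9.34, 9.99 and 19.3 in Atg14-deficient cTregs, beside 1.63, 2.62 and 2.16 in control eTregs and 4.79, 2.51, 2.91 and 8.73 in Atg14-deficient eTregs. Slc22a8 was not called (0.69, SE 0.58), and its effects were 0.74 in eTregs and 0.19 in cTregs. A strong genotype effect that is alike in both states, as at H2-M3, cancels in this comparison.

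The distance between the states as a whole did not differ between the genotypes beyond the spread between mice. The root mean square of the eTreg minus cTreg log2 CPM over all tested regions, with every library thinned to the same total, was 0.912, 0.809 and 0.976 in control mice (0.899 ± 0.084, SD, n = 3). In Atg14-deficient mice it was 0.947, 0.930, 0.902 and 0.824 (0.901 ± 0.054, n = 4). The values of the genotypes overlapped, and the difference of 0.0022 had p = 0.943 by a two-sided exact permutation test over the 7 mice, whose smallest possible p is 0.0286. The sign of so small a difference turned with the scaling and with the mice left out. Regions more open in eTregs in a fit without the genotype difference (3810 regions, adjusted p below 0.05 and log2 beyond 1) were higher in 2.55% and lower in 2.47%, with a median log2 difference of -0.01. Regions more open in cTregs (4120) were higher in 3.42% and lower in 1.6%, with a median of 0.11. In these the median eTreg effect of Atg14 loss was 0.29 and the median cTreg effect 0.18, so that the typical cTreg-open region was above control in Atg14-deficient cells of both states. Over the other 53436 regions 2.66% were higher and 1.79% lower.

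Higher and lower regions differed in where they lay. Promoters (up to 1000 bp before and 100 bp after a start) made up 28.4% of higher regions, 14.8% of lower regions and 24.0% of all tested ones. The share among higher regions fell below that of all tested regions with GC-content offsets (21.8% beside 24.0%), without control mouse 3 (20.4% beside 23.4%) and without Atg14-deficient mouse 4 (23.4% beside 24.5%), so the excess of promoters among them is not firm. The share among lower regions was below that of all tested regions in all 18 other settings. The percent of each library's counts that fell in promoters gave eTreg minus cTreg gaps of 2.24, 1.64 and -0.591 points in control mice and 0.271, 1.64, 2.204 and 3.08 points in Atg14-deficient mice (p = 0.514, two-sided exact permutation test).

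The calls were spread unevenly over chromosomes. On chromosome 11, 4.84% of tested regions were higher and 0.820% lower, and on chromosome 19, 5.82% were higher and 0.951% lower. Together these chromosomes held 5465 regions, of which 281 were higher (5.14%) and 47 lower (0.860%), with a median log2 difference of 0.18, beside 2.46% higher and a median of 0.01 on the others. In these regions the median effect of Atg14 loss was 0.25 in eTregs and 0.05 in cTregs. The excess was found in each class of region: 7.94% of promoters on chromosomes 11 and 19 were higher beside 2.6% on the others, 4.03% beside 2.33% of introns and 3.39% beside 2.59% of intergenic regions. It was present in all 18 other settings, in which the share of higher regions on these chromosomes was 2.91% to 8.30% and that on the others 1.48% to 3.23%, and with GC-content offsets it was 4.01% beside 2.17%. These chromosomes were singled out after their values were seen.
The same pattern can be read from the libraries without any fit. The share of all counts that fell on chromosome 11 was 4.49%, 4.98% and 4.15% in control eTregs and 5.08%, 4.85%, 5.17% and 5.94% in Atg14-deficient eTregs. Subtracting the cTreg share of each mouse gave -0.0702, 0.319 and -0.291 points in control mice and 0.384, 0.325, 0.513 and 0.985 points in Atg14-deficient mice. The genotypes did not overlap, though control mouse 2 and Atg14-deficient mouse 2 lay within 0.01 points of each other. On chromosome 19 the gaps were 0.0025, 0.0844 and -0.0340 points in control and 0.172, 0.283, 0.233 and 0.349 points in Atg14-deficient mice. Of 20 chromosomes, 6 had gaps that did not overlap between genotypes: 9, 11 and 19, where Atg14-deficient mice were above, and 2, 13 and 16, where they were below. Each had p = 0.0286 by the two-sided exact permutation test, the smallest it can give, and 0.0952 after Benjamini-Hochberg adjustment over the 20 chromosomes, so none passes. Shares of 1 library sum to a fixed total and the chromosomes are therefore not independent.

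**Figure D5:**
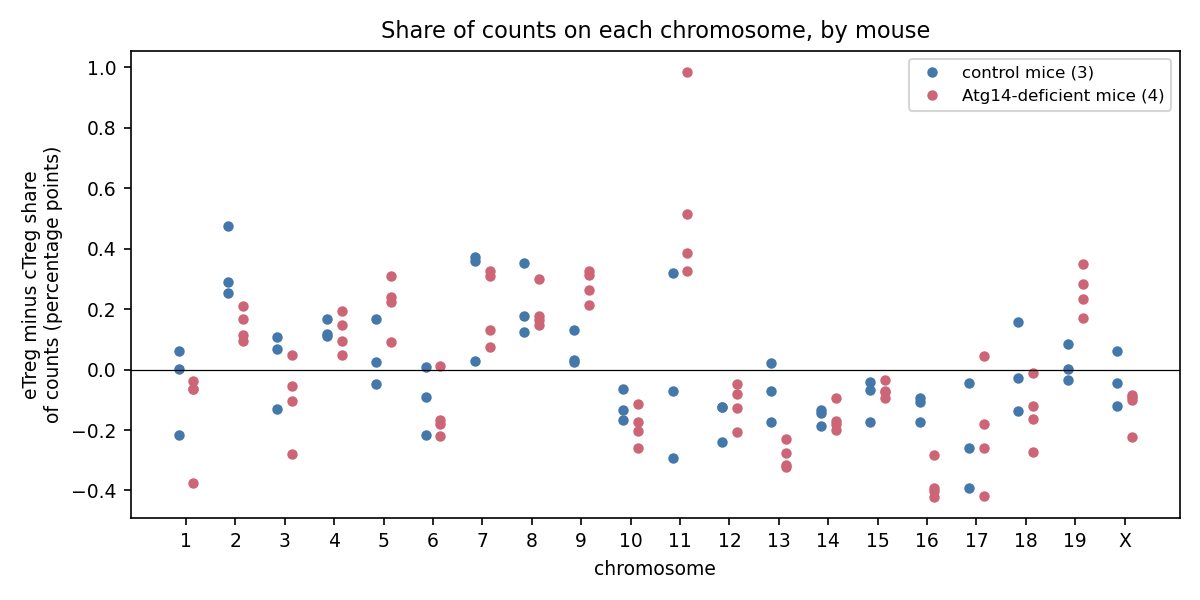
The percent of a library's counts on each chromosome, eTreg minus cTreg within a mouse in percentage points, for the 3 control and 4 Atg14-deficient mice. On chromosome 11 the control mice lie between -0.291 and 0.319 points and the Atg14-deficient mice between 0.325 and 0.985.

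Chromosomes 11 and 19 are dense in genes, and the share of higher regions also moved with local gene density. Regions were divided into 5 bins by the number of protein-coding starts within 500000 bp on either side. In the sparsest bin (0 to 5 starts) 2.17% of regions were higher and 2.49% lower, and in the densest (22 to 72 starts) 3.83% were higher and 1.06% lower. With chromosomes 11 and 19 set aside the ends of the range were 2.12% and 3.38% higher, and 2.53% and 1.15% lower. Within the densest bin the share of higher regions was 6.14% on chromosomes 11 and 19 and 3.38% on the others. On chromosome 11 it was 2.96% in the first 50 Mb and 5.5% in the rest.

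Motif content differed between higher and lower regions. The NF-kappaB motif was present in 6.65% of lower regions, 2.66% of higher regions and 2.95% of all tested regions. The TCF/LEF motif was present in 9.79% of higher, 7.01% of lower and 6.83% of all regions, and the RUNX motif in 19.2%, 15.2% and 15.1%. The CTCF motif was rarer among called regions of either direction (9.49% of higher, 12.7% of lower) than among all regions (13.9%). Outside promoters the NF-kappaB motif was in 6.86% of lower regions beside 3.0% of all, and among higher regions the TCF/LEF motif was in 11.5% beside 7.51% and the RUNX motif in 23.4% beside 17.1%. The AP-1 motif was in 18.1% of higher and 22.0% of lower regions beside 17.5% of all, but within the central 200 bp it was in 9.67% of higher, 15.5% of lower and 11.5% of all regions, so that higher regions fell below the rest. ETS and forkhead motifs were in 8.58% and 6.04% of higher regions and 5.57% and 6.29% of lower regions, beside 8.46% and 5.81% of all. These shares are descriptions without a test, and the factors that bind such motifs were not measured.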

How the data were processed

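Reads of sorted splenic Tregs from 4 groups of libraries were processed by the authors. Per the submitters' processing notes and the study's methods, adapters were trimmed (cutadapt 1.9 is named in the notes and Trimmomatic in the methods), reads were aligned with BWA, duplicates were marked with Picard (version 1.65 in the notes, a later one in the methods), read ends were shifted for the transposase, nucleosome-free fragments were kept, peaks were called with MACS2 2.1.0.20150603 and merged across libraries, and reads were counted in the merged regions with bedtools. The deposited values are raw counts, whole numbers without normalization, of which 82.0% are even. The notes name GRCm38 (mm10) and the methods mm9. All 67207 regions on chromosomes lay within GRCm38, and 10147 of 21774 coding starts had a region within 200 bp, beside 758 after the regions were shifted by 20000 bp, so GRCm38 was used. Positions are counted from 1.

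The software was DESeq2 1.42.0, limma 3.58.1 and edgeR 4.0.16 under R 4.3.3, and pysam 0.24.0, matplotlib 3.10.9, NumPy 2.4.6, SciPy 1.17.1 and pandas 2.3.3 under Python 3.11.15. Library totals served as scaling, filterByExpr of edgeR set the regions tested, and the interaction was tested by edgeR's quasi-likelihood test with the 7 mice as a fixed block, which leaves 5 residual degrees of freedom. Effects within a state came from the same test without the block, since a genotype effect cannot be estimated with the mouse as a block. The study's methods set an adjusted p below 0.05 and a log2 change beyond 0.5 for its accessible regions, and the same values with an unadjusted p were used in the study for the Atg14-deficient eTregs. Both were applied here, with p-values adjusted by Benjamini-Hochberg over all tested regions. The fitted log2 values are those of edgeR, CPM are counts per 1000000 of the library's total, and gaps of single mice use log2 CPM with a prior count of 2. Each region was assigned to the nearest annotated start in RefSeq. No column of the table went unused. The steps were tested on simulated data.

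Members, gene lists, motifs and the rule for named regions were chosen with earlier results of these data known. The rule names regions past the adjusted threshold, the 10 regions per direction with the smallest p and gaps that do not overlap, up to 5 genes per direction with 3 or more called regions, up to 4 called regions per list, and regions of Atg14, H2-M3, Slc22a8, Zfp932, Bmf and Gm15708. Alternatives were other scalings (TMM, DESeq2's size factors, loess and GC-content loess offsets), no mouse block, the mouse as a random effect, other filters, thinned or halved counts, DESeq2's test, a log2 cutoff of 1 and each mouse left out. Nothing beyond the numbers ties the libraries of a mouse together. The correlations of deviations were over 0.1 in 6 of the 7 pairs and 0.05 for control mouse 1, and the block rests on the definition of the comparison.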

Additional observations from a re-analysis of the deposited data

Results flagged for a closer look

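The region near Gm52297 (chr17:86709765-86710262) was flagged because the effect of Atg14 loss differed between the states by a test of that difference (log2 -1.14, edgeR's quasi-likelihood test).

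In 20 of 236 groups of 4 Atg14-deficient libraries at the named regions and in the whole-library measures, 1 library stood far from the other 3, which chance alone gives in about 5% of groups. The values below are the gap of that library to its nearest neighbour as a fraction of the range of the group. Among Atg14-deficient eTregs the highest library stood apart at Znrf1 (0.926, values 1.199, 3.35, 1.06 and 1.03 CPM), Zfp932 (0.92), Klrb1c (0.906), Prdx5 (0.894), Gm26535 (0.887), Pmel (0.867), Il7r (0.862), the upstream Bmf region (0.854), Wipi1 (0.844) and Hif1a (0.83), and the lowest library stood apart at Foxp1 (0.847, values 8.39, 5.02, 9.0002 and 8.48 CPM). At Prdx5 the eTreg values were 28.2, 27.6, 29.9 and 49.3 CPM.

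Among Atg14-deficient cTregs the highest library stood apart at Coq10a (0.881), S1pr1 (0.872, values 13.4, 14.02, 13.1 and 19.9 CPM), Prdx5 (0.871), Slc11a2 (0.854) and Map3k11 (0.833). The lowest library stood apart at Ext1 (0.883), Ldha (0.858), Irf4 (0.843) and 4930598A11Rik (0.833).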

How the results depend on the processing

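Taking same-numbered libraries as 1 mouse decided the region that passed the adjustment. Without the replicate block 1172 regions were higher, 700 lower and 0 adjusted, and 1067 of these higher and 649 of these lower regions were also called with the block. With the mouse as a random effect 0 regions passed the adjustment, and with counts thinned to the smallest total 0 passed. With at least 10 counts in every library 953 regions were higher and 635 lower, and 2 were adjusted. DESeq2's test called 986 higher regions, and a log2 cutoff of 1 left 1017 higher and 646 lower. Leaving out each mouse gave 1385 to 1947 higher, 976 to 1603 lower and 0 to 2 adjusted regions, with 0 adjusted without control mouse 1 and without control mouse 2. For the state distance the genotype difference was -0.0042 with TMM normalization, -0.0158 with a prior count of 0.5 and -0.0429 to 0.0407 as mice were left out, turning negative without control mouse 2 and Atg14-deficient mice 1 and 2, and the promoter share gap differed by -0.143 to 1.27 points, negative without control mouse 3. With a log2 cutoff of 0.5 for the state classes 3.27% of eTreg-open regions were higher and 2.21% of cTreg-open regions lower. Among named regions the sign turned at Atg14 (chr14:47597861-47598171, -0.12) without control mouse 2, at H2-M3 without the block (-0.0334) and with thinned counts (-0.0102), and at Zfp932, which ranged from -0.13 without control mouse 3 to 2.60 without control mouse 1. In the other comparisons of a named region with an alternative, 1770 kept direction and side of the threshold, 260 kept direction but no longer passed and 5 passed newly. In the cases where the calls moved, the cause was not tested. The recount of promoter and chromosome shares under each setting, and of motifs outside promoters, was chosen after seeing the data. The median tested region had 23.0 counts per library, and log2 differences had a median SE of 0.54.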

Other observations

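The lists not described above had few called regions each, and over all tested regions 2.7% were higher and 1.82% lower. The higher shares were 2.86% for T cell receptor signalling, 2.04% for cytokine receptors and STATs, 2.80% for apoptosis and 3.17% for chemokine receptors and integrins. The lower shares of these lists were 2.14%, 2.04%, 0.93% and 1.59% in the same order, and that of interferon-stimulated genes was 2.17%. T cell receptor signalling had 4 of 140 regions higher, at Cd6 (1.02, SE 0.45), Lcp2, Nfatc2 (0.99, SE 0.42) and Ptpn22, and 3 lower, at Cd3e and Zap70 (2). At 1 of the Zap70 regions (chr1:36807210-36807434) all 3 control cTreg libraries were listed at 0 and the Atg14-deficient cTreg libraries held 4.199, 0.779, 0.526 and 1.93 CPM. Cytokine receptors and STATs had 3 of 147 higher, among them regions near Il12rb1 (1.46, SE 0.56) and Il21r (0.58, SE 0.26), and 3 lower, at Tgfbr2 (-2.04, SE 0.84), Socs3 (-0.97, SE 0.42) and Il1r2. Of 107 regions of apoptosis genes 3 were higher, at Pmaip1, which encodes the BH3-only protein Noxa (1.31, SE 0.42), Fas (0.61, SE 0.26) and Bmf. Chemokine receptors and integrins had 4 of 126 higher, at S1pr4 (2), Ccr6 and Cxcr4, and 2 lower, at Itga6 and Itgb8. Interferon-stimulated genes had none of 46 higher and 1 lower, near Ifih1. The counts of these lists moved in the other settings. Higher regions numbered 1 to 6 for T cell receptor signalling (1 without control mouse 1 or Atg14-deficient mouse 3), 1 to 7 for cytokine receptors and STATs (7 without Atg14-deficient mouse 1), 1 to 7 for apoptosis (1 without control mouse 1, 7 without control mouse 3 or Atg14-deficient mouse 2), 1 to 5 for chemokine receptors and integrins (2 without control mouse 1) and 0 to 1 for interferon-stimulated genes. Lower regions numbered 0 to 5 for T cell receptor signalling (5 without control mouse 1), 1 to 4 for apoptosis (1 with all mice, 4 without control mouse 2), 2 to 8 for cytokine receptors and STATs (8 without Atg14-deficient mouse 2), 0 to 2 for chemokine receptors and integrins (0 without Atg14-deficient mouse 3) and 0 to 3 for interferon-stimulated genes (0 without control mouse 1 or 2 or Atg14-deficient mouse 1 or 2).

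Regions at marker genes of other cell types were few. Of 4 B cell regions 1 was higher, at the Ebf1 promoter (1.504, SE 0.54), with 7.82 to 12.4 CPM in control cTregs, 0.779 to 10.1 in Atg14-deficient cTregs, 3.97 to 12.4 in control eTregs and 8.37 to 11.8 in Atg14-deficient eTregs. The summed B cell signal gave eTreg minus cTreg gaps of -1.08 to 0.53 in control and 0.30 to 1.35 in Atg14-deficient mice on the log2 scale, which overlap. None of the 9 myeloid, 11 CD8 T and NK cell and 6 erythroid regions tested was called.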
